A study of Arabidopsis thaliana with 8 samples.

Results

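CHIL and DFR are 2 genes of flavonoid synthesis, each read by 1 probe set of the ATH1 array, a single-colour oligonucleotide array of Arabidopsis thaliana. They were taken as the probe sets that the platform annotation pairs with CHIL or with DFR alone, and the rule found 2 probe sets among 22810 on the array, 22746 of which are no manufacturer's controls and were tested. Probe set 250794_at reads CHIL (chalcone isomerase-like, locus AT5G05270) and 249215_at reads DFR (dihydroflavonol reductase, locus AT5G42800), both genes of chromosome 5. The 2 groups were whole seedlings labelled E2Fa-Dpa and seedlings labelled wildtype, with 4 arrays each, all of the Col-0 accession. Both were grown on agar medium at 22 °C in long days of 16 h light, and they were taken 6 days after germination. How E2Fa-Dpa seedlings came about is in no label. From published work of the depositing laboratory, seedlings of that name are known to carry E2Fa and DPa, a pair of transcription factors that bind DNA as a dimer, under a constitutive viral promoter. No label gives the number of transgenic lines or says that replicates were separate cultures, so all p-values refer to the spread between the samples as deposited, which may be partly technical.

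Flavonoids are built in plants from a phenylpropanoid precursor and malonyl units. Chalcone synthase makes the first flavonoid skeleton, chalcone isomerase closes its ring, and hydroxylases turn the product into dihydroflavonols. From there the route branches: flavonol synthase leads to flavonols, which absorb ultraviolet light and are stored as glycosides, whereas DFR reduces dihydroflavonols on the way to the red anthocyanins and the tannins of the seed coat. CHIL has the fold of chalcone isomerase without its catalytic activity, and it binds chalcone synthase and raises the yield of the route. CHIL therefore acts at the entry of the route, before the branch point, and DFR acts on one side of it.

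The arrays also differed in a way that the groups do not explain. Control RNA for the Bacillus gene dap, an RNA of known amount that laboratories may mix into a sample, gave signals of 79.4 to 121 on E2Fa-Dpa replicates 1 and 4 and wildtype replicates 3 and 4. On E2Fa-Dpa replicates 2 and 3 and wildtype replicates 1 and 2 it gave 0.644 to 6.17. These array sets, with and without control RNA, were split at a signal of 50 and treated as a batch, and each holds 2 arrays of each group. No label names such a batch, so whether it is technical or lies in the seedlings themselves is not known. The 2 arrays of 1 group and 1 set were closer to each other (correlation of 0.974 to 0.994 over all tested probe sets) than any other 2 arrays (at most 0.968). Should each such pair stem from a single RNA, the groups would hold 2 samples each. The sets differed in RNA measures as well. The actin control had a ratio of 3' over 5' signal of 12.8 to 15.1 on arrays with control RNA and 5.66 to 8.07 without, and the GAPDH control one of 1.31 to 1.45 and 1.05 to 1.28. The ubiquitin ratio was 2.68 to 3.19 with control RNA and 2.09 to 2.74 without, and the probe set for ribosomal RNA had signals of 46.3 to 118 and 1.52 to 6.09. The part of these measures in the results below was not tested.

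CHIL was lower in E2Fa-Dpa seedlings than in wildtype seedlings. Its signal, a linear intensity scaled by the authors with MAS5, was 25.2 and 18.8 in E2Fa-Dpa replicates 1 and 4 and 39.4 and 34.7 in E2Fa-Dpa replicates 2 and 3. It was 47.8 and 114 in wildtype replicates 3 and 4 and 151 and 153 in wildtype replicates 1 and 2. All 4 E2Fa-Dpa values lay below all 4 wildtype values, an order that 6.77% of the tested probe sets had. The gap between the highest E2Fa-Dpa array and the lowest wildtype array was small beside the range within wildtype, because wildtype replicate 3 stood well under its 3 companions. The mean was 29.5 ± 9.26 in E2Fa-Dpa and 116 ± 49.3 in wildtype (SD, n = 4 each), so that the E2Fa-Dpa mean was 25.4% of the wildtype mean.

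On the log2(signal + 16) scale, which understates the change of dim probe sets, CHIL fell by 1.47 ± 0.309 (SE, 95% interval -2.16 to -0.77). The adjusted p was 0.0228 in a limma fit over all tested probe sets with Benjamini-Hochberg adjustment and a threshold of 0.05. In that fit 2.94% of the probe sets fell, CHIL among them, and 4.36% rose. An exact permutation test of the group means gave p = 0.0286 (two-sided), the smallest value that 70 regroupings of 4 against 4 arrays allow. Whether the call held depended on the array left out. The adjusted p was 0.0510 to 0.0775 without E2Fa-Dpa replicate 1, 3 or 4 or without wildtype replicate 1 or 2. It was 0.00275 without wildtype replicate 3, where the change was -1.78, and 0.0313 and 0.0494 without E2Fa-Dpa replicate 2 and without wildtype replicate 4.

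**Figure D1:**
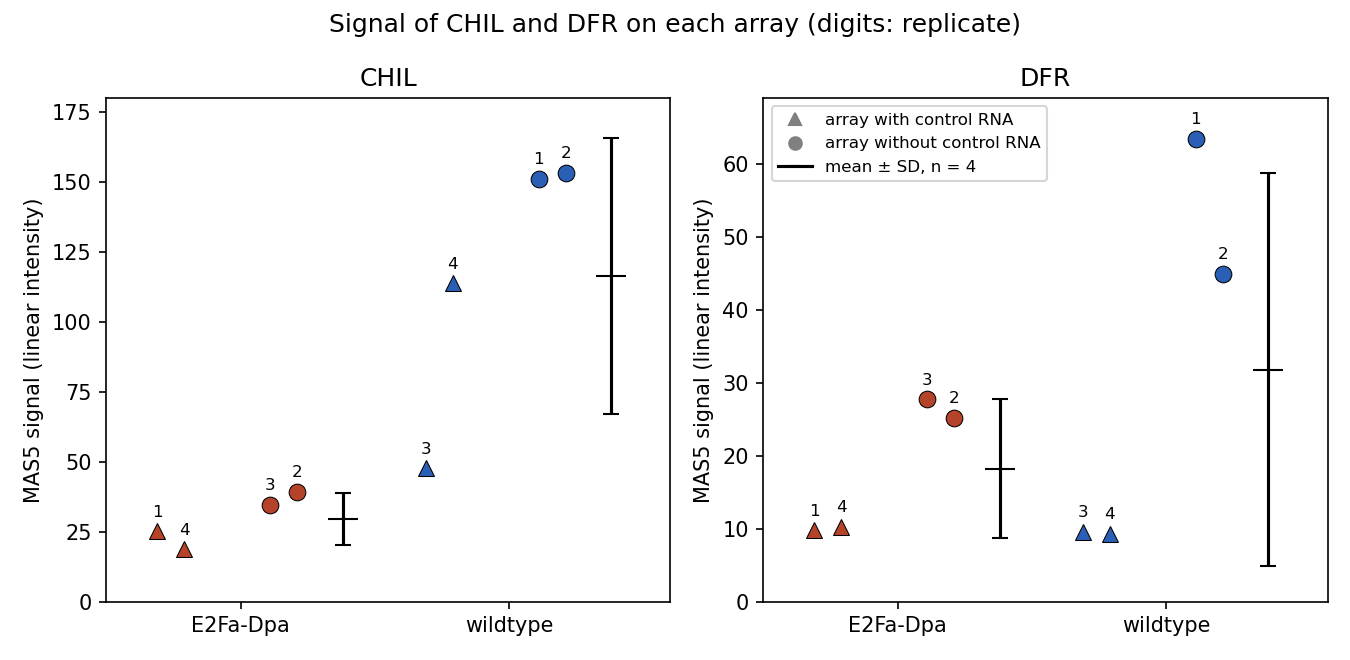
Linear MAS5 signal of CHIL (left) and DFR (right) on each array, with E2Fa-Dpa left of wildtype, triangles for arrays with control RNA, circles for arrays without, replicate numbers beside the points, and bars for the mean ± SD over 4 arrays. The CHIL values of the groups do not overlap (18.8 to 39.4 in E2Fa-Dpa and 47.8 to 153 in wildtype), while the DFR values separate by array set (9.31 to 10.3 with control RNA and 25.2 to 63.5 without).

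The mean of CHIL was lower in E2Fa-Dpa in both array sets. Among the arrays with control RNA the mean was 22.0 ± 4.51 in E2Fa-Dpa and 80.8 ± 46.8 in wildtype (SD, n = 2 each), and among those without it 37.1 ± 3.29 in E2Fa-Dpa and 152 ± 1.53 in wildtype. The E2Fa-Dpa mean was thus 27.2% of the wildtype mean in the first set and 24.4% in the second. The log2 change was -1.26 (95% interval -2.19 to -0.34, limma, adjusted p = 0.110) with control RNA, where 2.95% of probe sets fell, and -1.67 (-1.95 to -1.38, adjusted p = 0.00504) without it, where 5.14% fell. Within the first set the wildtype pair was itself 47.8 and 114, and the change did not pass the test there. The difference of the change between the sets was 0.40 on the log2 scale (95% interval -0.56 to 1.36, limma interaction, adjusted p = 0.770), so a difference between the sets was not shown. That difference turned to -0.11 without wildtype replicate 3 and was 0.91 without wildtype replicate 4.

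Blocking on the array set left the change of CHIL at -1.47 by construction, and its adjusted p was 0.00199 (limma). The block fit called 9.77% of the probe sets fallen and 11.7% risen. An exact permutation test that kept the array sets gave p = 0.0556 (two-sided), the smallest value that its 36 regroupings allow. With a random block for the 4 close pairs the adjusted p was 0.112, and with each pair averaged to 1 sample, an alternative chosen after the data were seen, it was 0.325. The call for CHIL therefore rests on counting the arrays of a pair as separate samples. Its direction was the same in every one of the 21 alternatives. With all E2Fa-Dpa values below all wildtype values, most of these alternatives could not have reversed it, so that count adds little.

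DFR showed another pattern. Its signal was 9.82 and 10.3 in E2Fa-Dpa replicates 1 and 4 and 25.2 and 27.8 in E2Fa-Dpa replicates 2 and 3. In wildtype it was 9.58 and 9.31 in replicates 3 and 4 and 63.5 and 45.0 in replicates 1 and 2. The groups overlapped fully, and the 4 low values are those of the arrays with control RNA. The mean was 18.3 ± 9.56 in E2Fa-Dpa and 31.8 ± 26.9 in wildtype (SD, n = 4 each). The log2 change was -0.34 ± 0.391 (SE, 95% interval -1.22 to 0.54), which did not pass the test (limma, adjusted p = 0.669, and 0.181 after blocking on the array set). The exact permutation test gave p = 0.543 for the groups and 0.333 within array sets (two-sided). The interval without a block holds a fall of more than 2-fold as well as a rise. With the array set as a block it was narrower, -0.71 to 0.04. The log2(signal + 16) scale understates the change of dim probe sets, so neither interval sets a narrow limit on a change of the DFR signal itself.

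Between the array sets DFR was lower with control RNA, at 9.75 ± 0.409 against 40.4 ± 17.7 without (SD, n = 4 each), which is 24.2% of it. All 4 values with control RNA lay below all 4 without, as they did for 13.4% of the tested probe sets. The difference was -1.08 ± 0.165 on the log2 scale (SE, 95% interval -1.45 to -0.70, limma with the group in the model, adjusted p = 0.00317), in a fit that called 16.5% of the probe sets lower and 9.73% higher with control RNA. The exact permutation test within groups gave p = 0.0556 (two-sided), the smallest it allows. The call held with any single array left out (adjusted p of 0.00596 to 0.0116) but was lost with each close pair averaged to 1 sample (adjusted p = 0.0577) and with the replicate number as a block (0.0531). DFR is thus among the 16.5% of probe sets called lower on these arrays, and how its difference ranks in size among them was not counted. The labels do not say what sets the 2 kinds of arrays apart.

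Among the arrays without control RNA, DFR averaged 26.5 ± 1.82 in E2Fa-Dpa and 54.2 ± 13.1 in wildtype (SD, n = 2 each). The log2 change was -0.71 (95% interval -1.16 to -0.26), which did not pass the adjusted threshold in that set (limma, adjusted p = 0.0638). Among the arrays with control RNA the mean was 10.1 ± 0.327 in E2Fa-Dpa and 9.45 ± 0.191 in wildtype, a change of 0.03 (-0.23 to 0.29, adjusted p = 0.876). These 4 signals lay under the added constant of 16, in a range where 34.0% to 35.7% of all probe sets on those arrays lay. Detection calls were not used here, so it is not known whether DFR was detected on them. The difference of the group change between the sets was 0.75 (0.23 to 1.26) and did not pass the test over all probe sets (limma interaction, adjusted p = 0.264). That interaction passed for 0.0835% of the probe sets.

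**Figure D2:**
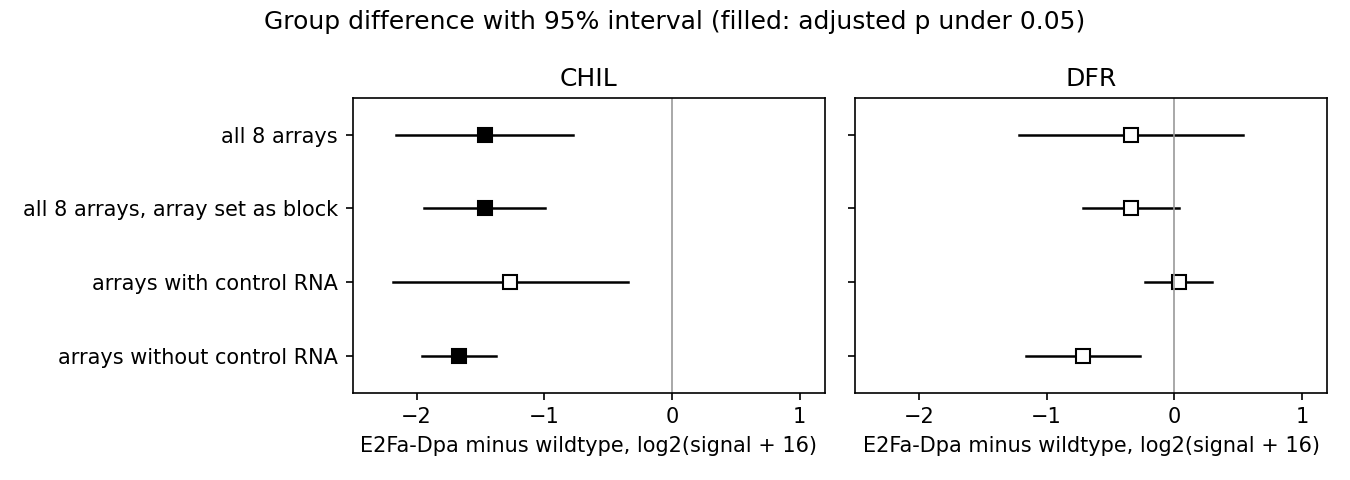
E2Fa-Dpa minus wildtype on the log2(signal + 16) scale for CHIL (left) and DFR (right), from top to bottom over all arrays, over all arrays with the array set as a block, and within the arrays with and without control RNA. Squares are limma estimates, lines their 95% intervals, and filled squares have an adjusted p under 0.05. CHIL lies between -1.67 and -1.26 in all 4 fits, and DFR between -0.71 and 0.03.

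CHIL was lower on the arrays with control RNA as well. It averaged 51.4 ± 43.5 with control RNA and 94.6 ± 66.5 without (SD, n = 4 each), and the difference with the group in the model was -0.69 on the log2 scale (95% interval -1.16 to -0.21, limma, adjusted p = 0.0406). This call was lost when arrays were centred on their medians (adjusted p = 0.0575), with quantile normalization (0.0748) and with cyclic loess (0.0576). It was also lost without any of the 4 E2Fa-Dpa arrays or without wildtype replicate 1 or 2 (adjusted p of 0.0607 to 0.0993). Within each group the 2 arrays with control RNA lay below the 2 without, an order whose share over all probe sets was not counted. The smallest p of an exact permutation test within groups, 0.0556, was reached here too.

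The group changes of the members were compared directly through the difference CHIL minus DFR on each array. That difference was lower in E2Fa-Dpa by -1.13 on the log2(signal + 16) scale (exact permutation test, two-sided, p = 0.0286 over all regroupings and 0.0556 within array sets, in both cases the smallest possible). The added constant compresses low signals, so the size of that gap depends on it. On the 4 arrays with control RNA, DFR was 9.31 to 10.3, under the constant of 16. The difference there mostly follows CHIL, so the test could not show a DFR change on those arrays. Between the array sets the same difference was 0.39 (exact permutation test, two-sided, p = 0.486, and 0.222 within groups), so a larger array set effect for DFR than for CHIL was not shown.

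Most of the flavonoid route could not be followed here. Of 60 genes written into 5 lists, from phenylalanine ammonia-lyase to the regulators, 11 had a probe set that the annotation pairs with them alone, and 9 of these are genes other than CHIL and DFR. The 11 are called measured here. None of the 8 genes of the phenylpropanoid entry and 1 of 6 genes of early flavonoid synthesis had such a probe set, and that gene is CHIL itself. Whether the others are read by probe sets that name several genes or are not listed was not checked. The genes for chalcone synthase, chalcone isomerase and flavonol synthase are thus not analysed here. Of the 11 measured genes 1 fell in E2Fa-Dpa, which was CHIL, and none rose (limma), beside 2.94% fallen and 4.36% risen over all tested probe sets. At an unadjusted p under 0.05 these counts were 2 and 0. Of the 9 genes other than CHIL and DFR, 0 fell and 0 rose (limma), and 1 and 0 did at an unadjusted p under 0.05. The median log2 change was -0.12 over the 11 genes and -0.07 over the 9, against 0.00403 over all tested probe sets.

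The gene with the next lower estimate was AT1G06000, a member of the list of flavonoid decoration and transport. Its signal was 48.6, 40.5, 29.6 and 33.8 in E2Fa-Dpa replicates 1, 4, 2 and 3, and 64.5, 177, 94.0 and 62.5 in wildtype replicates 3, 4, 1 and 2. All E2Fa-Dpa values lay below all wildtype values, an order that 6.77% of the tested probe sets had. Wildtype replicate 4 stood far over the others of its group. The change was -1.0 on the log2 scale (95% interval -1.63 to -0.38), with an adjusted p of 0.0613 without a block, not past the threshold, and 0.0211 after blocking on the array set (limma). With that block 2 of the 11 genes fell, CHIL and AT1G06000, and none rose, with 2 and 0 at an unadjusted p under 0.05. The same fit called 9.77% of all probe sets fallen and 11.7% risen, a larger share than without the block.

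None of the other genes of decoration passed the threshold between the groups. UGT78D2, which adds glucose to flavonoids, had 52.2 ± 11.9 in E2Fa-Dpa and 72.1 ± 24.4 in wildtype (SD, n = 4 each) and a log2 change of -0.34 (adjusted p = 0.394). UGT78D1, a flavonol rhamnosyltransferase, had 35.6 ± 7.30 in E2Fa-Dpa and 38.4 ± 16.2 in wildtype (change -0.05, 95% interval -0.51 to 0.42). UGT78D3, the arabinosyltransferase of the same family, AT4G14090, the anthocyanin glycosyltransferase gene UF3GT and the anthocyanin malonyltransferase gene AT5MAT had means of 2.62 to 11.3 in E2Fa-Dpa and 1.68 to 12.5 in wildtype. Their changes were 0.07, 0.02, -0.07 and -0.12, none past the threshold. Those means lay under the added constant of 16, which draws changes towards 0, so a lack of change is not shown for these genes.

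BAN, which makes the building blocks of seed coat tannins from anthocyanidins, had signals of 0.525 to 0.865 in E2Fa-Dpa and 0.441 to 3.08 in wildtype. HYH, a light-signalling transcription factor related to HY5, was the 1 measured gene of the 25 regulators, with 17.8 ± 2.43 in E2Fa-Dpa and 23.3 ± 9.45 in wildtype (SD, n = 4 each, change -0.19, adjusted p = 0.551). CCR2, a lignin pathway reductase of the family that holds DFR, was the 1 measured gene of 5 written as DFR-like, at 15.7 ± 2.98 in E2Fa-Dpa and 21.1 ± 11.3 in wildtype. Its log2 change was -0.55 without control RNA and 0.19 with it (limma, adjusted p = 0.104 and 0.502). The difference between the sets was 0.74 (limma interaction, adjusted p = 0.299), beside 0.75 for DFR, so the pattern of DFR over the array sets was not its own. Of the 4 relatives of chalcone isomerase by fold none was measured.

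Between the array sets 3 of the 11 genes were lower with control RNA, DFR, CHIL and AT5MAT, and none was higher, against the 16.5% and 9.73% of all probe sets given above, while 4 and 0 had an unadjusted p under 0.05. AT5MAT, which acts on anthocyanins, had 3.79, 3.68, 3.98 and 5.42 on the arrays with control RNA and 15.0, 9.79, 13.3 and 18.7 on those without. The difference was -0.57 on the log2 scale (limma, adjusted p = 0.00431). UF3GT, of the same branch as DFR, had -0.56 (adjusted p = 0.0656). Most signals of AT5MAT and of UF3GT lay under the added constant of 16. AT4G14090, BAN, UGT78D3 and HYH had -0.24, -0.06, -0.05 and -0.28, none past the threshold (limma, adjusted p of 0.15 to 0.79). UGT78D1, UGT78D2 and AT1G06000 had 0.30, 0.20 and 0.38, none past the threshold (adjusted p = 0.240, 0.506 and 0.277). The median over the 11 genes was -0.24, against -0.07 over all tested probe sets. Without CHIL and DFR it was -0.06 over 9 genes, of which 1 was lower, AT5MAT. Most of these 9 had means under the constant of 16 in both groups, which draws such a median towards 0.

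**Figure D3:**
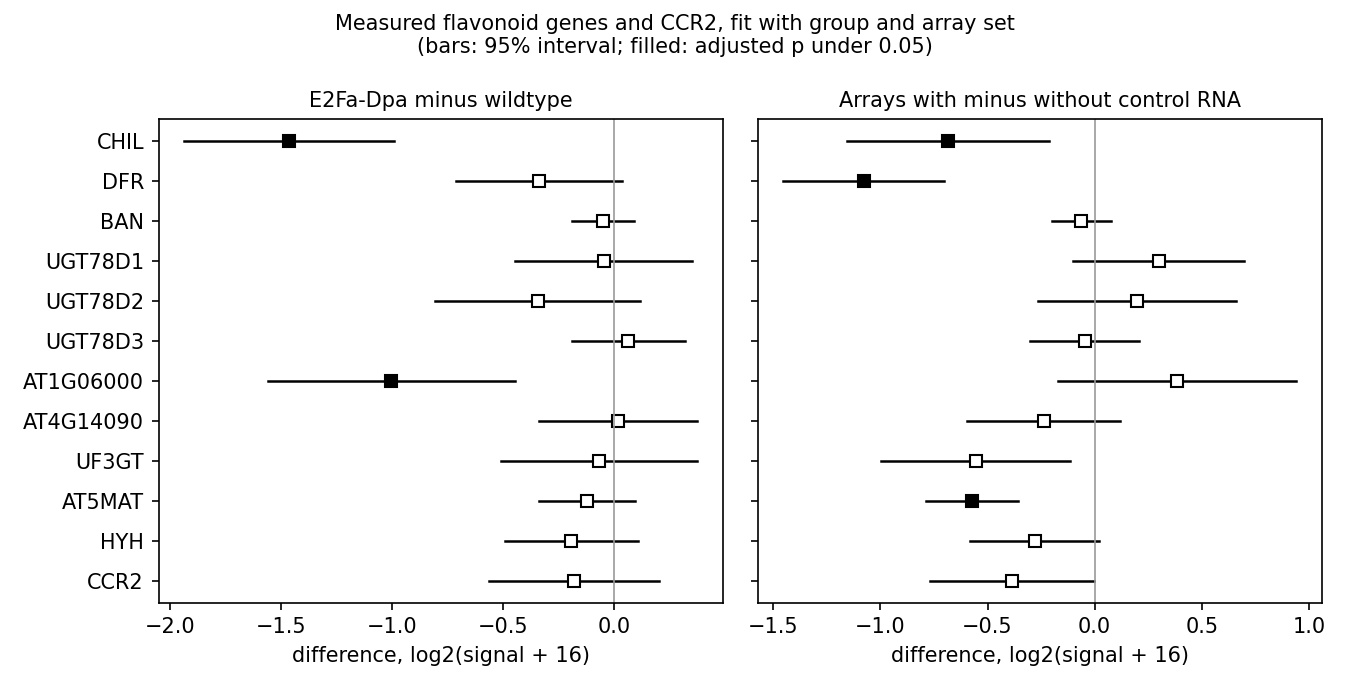
Differences of the 11 measured flavonoid genes and of CCR2 on the log2(signal + 16) scale in 1 limma fit with group and array set, for E2Fa-Dpa minus wildtype (left) and for arrays with minus without control RNA (right). Lines are 95% intervals and filled squares have an adjusted p under 0.05. CHIL and AT1G06000 pass on the left, and CHIL, DFR and AT5MAT on the right.

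Markers of the parts of a seedling moved with the group as well. Of 6 genes written as markers of green tissue 4 were measured, among them PRK, the phosphoribulokinase of carbon fixation, and all 4 had lower means in E2Fa-Dpa, 1 of them past the threshold. Their summed signal was 8630 to 10560 in E2Fa-Dpa and 11100 to 13770 in wildtype. All 4 root markers were measured, among them PYK10, a beta-glucosidase of root cells, and all 4 had lower means in E2Fa-Dpa, 2 of them past the threshold, beside the 2.94% of all probe sets that fell. After blocking on the array set 3 of the 4 green tissue markers and 2 of the 4 root markers fell (limma), beside 9.77% of all probe sets. The lists were chosen with earlier results of these data known, so these counts are a description and no independent comparison with those shares. The summed signal of the root markers was 2728 to 3124 in E2Fa-Dpa and 4007 to 5054 in wildtype. PYK10 made up most of that sum, at 2486 to 2727 in E2Fa-Dpa and 3420 to 4608 in wildtype. The median log2 change was -0.39 for the green tissue markers and -0.48 for the root markers, each smaller in size than that of CHIL. Their part in the fall of CHIL was not tested, and in whole seedlings fewer cells of a type and less RNA per cell cannot be told apart. None of the 4 seed markers was measured.

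The genes closest to each member were sought among 5465 other probe sets that name 1 gene and have a mean signal of at least 50, by Pearson's correlation of log2(signal + 16) over the 8 arrays. The arrays form 4 close pairs, so that these are correlations over few independent points, given as a description. Genes found in this way have the pattern of the member by choice, and no test of them is given. For CHIL the 5 closest were AT2G18370, AT4G29030, AT3G47070, AT4G23730 and AT5G54940, with correlations of 0.979 to 0.989. Their group changes, from -0.88 to -0.38, were smaller in size than that of CHIL. AT2G18370 averaged 103 in E2Fa-Dpa and 178 in wildtype with control RNA, and 140 in E2Fa-Dpa and 245 in wildtype without it. Its log2 change was -0.71, and that of AT4G23730 was -0.88.

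For DFR the 5 closest were AT5G59080, AT1G64850, AT1G15370, AT5G59770 and AT2G35260, with correlations of 0.980 to 0.991. Their log2 differences were -0.21 to -0.07 between the groups and -0.85 to -0.33 between the array sets, with minus without control RNA. AT1G64850 averaged 377 in E2Fa-Dpa and 364 in wildtype with control RNA, and 509 in E2Fa-Dpa and 712 in wildtype without it. Of the 11 measured flavonoid genes 3 passed the minimum signal of this search, CHIL, AT1G06000 and UGT78D2, so it says nothing of the others. CHIL and DFR themselves correlated at 0.629 over the 8 arrays (Spearman's rho 0.333), given here as a description without a test.

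**Figure D4:**
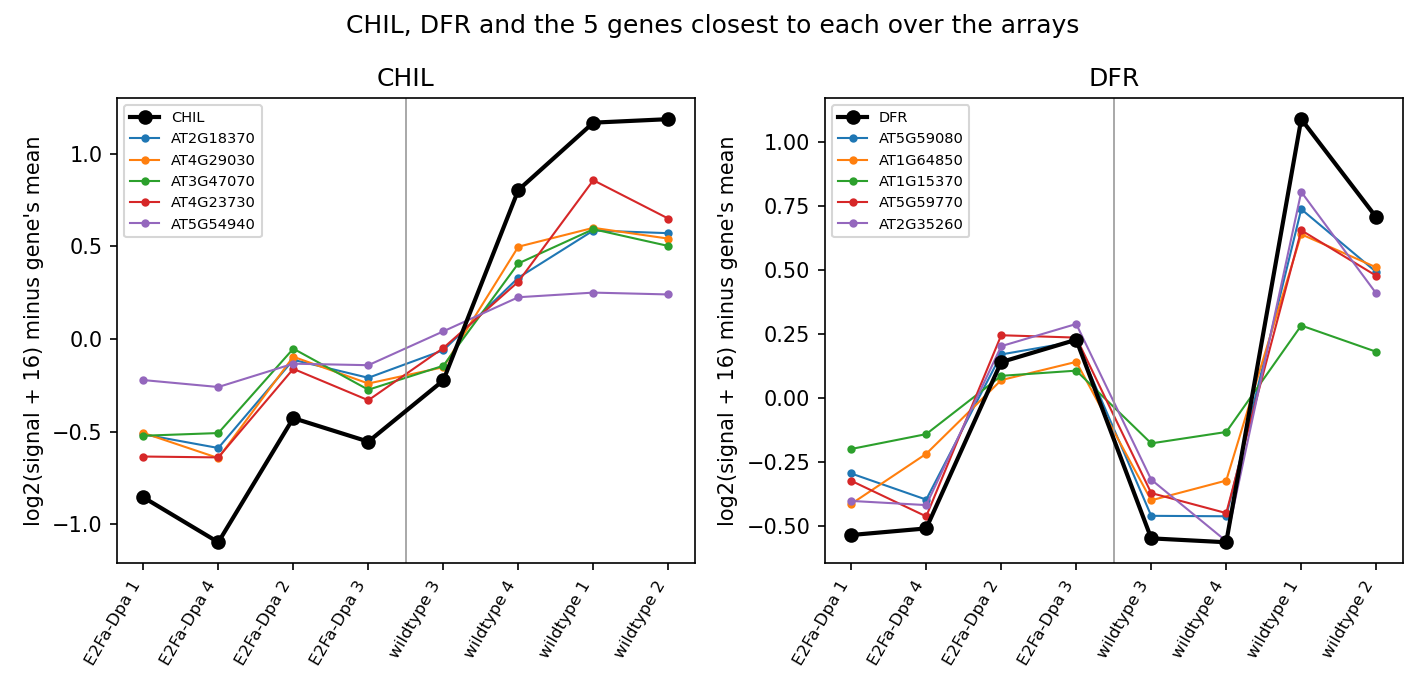
CHIL (left) and DFR (right) in black with the 5 closest genes of each in colour, as log2(signal + 16) minus each gene's own mean, on the 8 arrays with E2Fa-Dpa left of the grey line and wildtype right of it, and in each group the arrays with control RNA first. Lines join the values of 1 gene and stand for no order in time. The CHIL panel shows all E2Fa-Dpa arrays low and wildtype replicate 3 under the other wildtype arrays, and the DFR panel shows the arrays with control RNA low in both groups.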

How the data were processed

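Per the submitters' processing notes the values were made with MAS5. The deposited table holds a linear intensity for every probe set on every array, scaled to a trimmed mean of 100 on each array (2% cut at each end), and detection calls and the scaling target are not given in the sources used here. Signals were used as log2(signal + 16). Fits were made with limma 3.58.1 under R 4.3.3 (eBayes with a trend) on all 22746 tested probe sets without a filter, with Benjamini-Hochberg adjustment over all of them. The procedure was run on simulated data with independent arrays. That simulation held no close pairs, so it says nothing of calls that count both arrays of a pair. All adjusted p-values come from limma. Gene names came from the platform annotation, in which 13513 tested probe sets name 1 gene, 503 several, and 8730 are not listed. Of the 13513, 13436 matched RefSeq (TAIR10.1) by gene number. The array files name no genome build, so no coordinates are given, and no sequence was used here. The planned letter search in promoters was therefore not run. The array sets were read from the control probe set for dap. The members and lists were chosen with earlier results of these data known. Named are both members, every measured gene of the lists, and the 5 genes closest to each member. Where several probe sets read a gene of a list, the one of highest mean signal was used. The number of arrays limits the precision, and the median signal per array was 37.9 to 44.4. Alternatives were other constants and scalings, a filter, blocks, no trend, single array sets and left-out arrays.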

Additional observations from a re-analysis of the deposited data

How the results depend on the processing

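The change of CHIL in E2Fa-Dpa kept its direction in all 21 alternatives (adjusted p of 0.00199 to 0.325), most of which could not reverse it because the groups do not overlap. It lost its call with the pairs of arrays as a random block (-1.47), with each pair averaged (-1.47, chosen after the data were seen) and on the arrays with control RNA alone (-1.26), and ranged from -1.78 to -1.31 with 1 array left out. Of the 8 arrays, leaving out any of 5 also lost the call, so 8 of the 21 alternatives did. The lower CHIL with control RNA lost its call in 12 of 18 alternatives (adjusted p of 0.0165 to 0.100 over all). It was -0.42 with a constant of 64, -0.61 with arrays centred on the median, -0.59 with quantile normalization, -0.63 with cyclic loess, -0.85 with the replicate block, -0.69 with pairs averaged, and -0.85 to -0.44 with 1 array left out. The difference of the CHIL change between array sets, not past the threshold in any alternative, reversed to -0.29 with the replicate block, and was -0.11 to 0.91 with 1 array left out. The group change of DFR, not past the threshold in any of 20 alternatives, was 0.033 on the arrays with control RNA alone and -0.58 to -0.03 with 1 array left out. The lower DFR with control RNA lost its call with the replicate block (-1.20) and with pairs averaged (-1.08) and kept it in the other 15 alternatives. The count of flavonoid genes that fell, 1, was 2 (CHIL and AT1G06000) with a constant of 1, with quantile normalization, with cyclic loess, with a mean signal of at least 50, with the array set as a block and on the arrays without control RNA. It was 0 with pairs as a random block, with pairs averaged and on the arrays with control RNA, and 0 to 1 with 1 array left out. None rose in any alternative. Over all tested probe sets, 2.94% fell in the fit of all arrays without a block and 9.77% once array sets were blocked. Among arrays with control RNA 2.95% fell, and among those without it 5.14%. For the remaining alternatives this share is not given, so their counts of flavonoid genes have no background to be read against. The filter on a mean signal of 50 left DFR out, and pairs averaged leave no test of the interaction. The causes of these changes were not tested, except that left-out arrays and averaged pairs leave fewer samples. Deviations of same-numbered arrays correlated at -0.519, 0.443, -0.359 and 0.526 for replicates 1 to 4. The signs follow the array sets, which only replicates 2 and 4 share between the groups, so whether a replicate number marks a shared sample is not shown. The replicate block left the CHIL group call in place (adjusted p = 0.0480).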
